A study of Mus musculus with 2 samples.

Results

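Keratins and claudins were examined in 4T1, a mouse mammary carcinoma cell line with high metastatic potential. The group comprised every protein-coding gene whose symbol is Krt or Cldn followed by a number, which gave 86 genes (53 keratins and 33 claudins) among the 21911 genes of the deposited table. Keratin-associated proteins were not included, and Krt74 was left out because the annotation calls it a pseudogene. The cells received either PBS or potassium oxalate for 48 h before RNA was extracted, and 1 library was sequenced per condition, 2 libraries in all. The sample labels give the oxalate dose as 20 µM in the treatment field and as 20 mM in the treatment protocol. The paper that reported these libraries gives 20 µM. The values are those of 1 cell line in culture, and the labels name no genetic change in either group. With 1 library per condition no difference has a replicate check, no test of oxalate against PBS was possible, and no p-value is given.

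Keratins are the intermediate filament proteins of epithelial cells. Each filament is built from pairs of a type I and a type II keratin, and the pairs that a cell makes follow its kind of epithelium. Krt8 with Krt18 or Krt19 and Krt7 mark simple epithelia, including the luminal cells of the mammary gland, whereas Krt5 with Krt14 mark basal cells and Krt6, Krt16 and Krt17 appear in wounded or stressed stratified epithelium. Claudins are membrane proteins that cross the membrane several times and build the strands of tight junctions, some sealing the space between cells and others forming ion channels in it. Low levels of Cldn3, Cldn4 and Cldn7 name the claudin-low type of mammary tumour.

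Levels are given as FPKM (fragments scaled by transcript length and by library depth), which are per length and so can be compared between genes. From the steps between low FPKM values, the depth was estimated at about 56800000 reads with PBS and 36500000 reads with oxalate. The FPKM values summed to 567163 and 559026. The labels call the cells breast cancer cells. Of the epithelial markers other than keratins, Epcam was at 125.71 and 125.33 FPKM, Cdh1 at 187.7 and 199.34 FPKM and Esrp1 at 46.06 and 49.05 FPKM with PBS and oxalate. All 6 leukocyte markers were listed at 0 in both libraries, and 4 endothelial and 4 adipocyte markers summed to at most 0.30 FPKM in either library. Of 5 fibroblast markers, Col1a1 held nearly all of the summed level of 146.55 FPKM with PBS and 147.2 FPKM with oxalate, while Lum was listed at 0.

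4T1 cells carried the keratins of a simple epithelium, a basal keratin whose usual partner was at or near 0, and the claudins whose low levels define claudin-low tumours. Of the 86 genes, 15 reached 1 FPKM in at least one library, 9 lay between 0.1 and 1, 4 lay above 0 but under 0.1, and 58 were listed at 0 in both. The keratins summed to 1893.38 FPKM with PBS and 1941.7 FPKM with oxalate, and the claudins to 537 and 537.62 FPKM. Both sums were close in the 2 libraries. In such bulk RNA, fewer cells with a transcript and less of it per cell cannot be told apart.

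**Figure D1:**
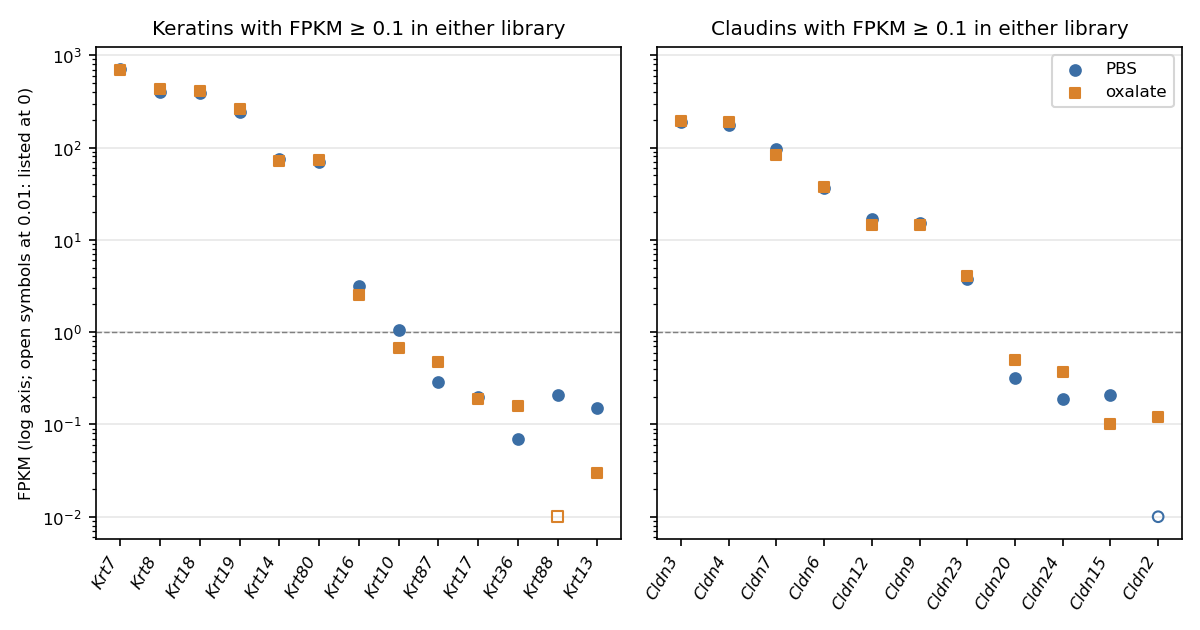
FPKM (log axis) of every keratin (left) and claudin (right) at 0.1 FPKM or more in either library, PBS as blue circles and oxalate as orange squares, with open symbols for values listed at 0. Krt7, Krt8, Krt18 and Krt19 lead the keratins at over 243 FPKM, and Cldn3 and Cldn4 lead the claudins at over 175 FPKM. Below 1 FPKM, where few reads were counted, the symbols of the 2 libraries stand further apart for most genes, though not for Krt17.

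The simple keratins held 92.1% of the keratin FPKM sum with PBS and 92.3% with oxalate. Krt7 (ENSMUSG00000023039, chromosome 15, 101411043 to 101430313, GRCm38), a type II keratin of ductal and glandular epithelia, was at 703.31 FPKM in the PBS library and 699.04 FPKM in the oxalate library, the highest level of all 86 genes in both libraries. Krt8 (ENSMUSG00000049382, chromosome 15, 101996698 to 102004482), the main type II keratin of simple epithelia, was at 401.94 FPKM in the PBS library and 429.31 FPKM in the oxalate library. Its type I partner Krt18 (ENSMUSG00000023043, chromosome 15, 102028180 to 102032027) was at 394.82 FPKM in the PBS library and 405.07 FPKM in the oxalate library. The level of Krt8 was 1.02 times that of Krt18 with PBS and 1.06 times with oxalate, so that the 2 partners stood at nearly equal levels. Krt19 (ENSMUSG00000020911, chromosome 11, 100140810 to 100148665), a small type I keratin that lacks most of the tail, followed at 243.07 and 259.47 FPKM. The fifth simple keratin, Krt20 of gut epithelium and urothelium, was listed at 0 in both libraries. Krt8 shared 29.7% of its 50-base windows with other annotated transcripts, chiefly those of the pseudogene Krt8-ps, so its level is uncertain where reads were divided between them.

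Krt8 and Krt18 are neighbours, 23.7 kb apart on opposite strands and reading away from each other, although Krt18 is a type I keratin and the other type I genes lie on chromosome 11. Their promoters are shown as the pair of genes whose levels were nearly equal. Each is the RefSeq window (GRCm38.p6) from 250 bases before to 50 bases after the start of transcription, chr15:102004293-102004592 on the minus strand and chr15:102027966-102028265 on the plus strand, with matches to TATAAA on either strand in capitals. The RefSeq start lay 140 bases from the GENCODE start for Krt8 and 36 bases for Krt18.
Krt8: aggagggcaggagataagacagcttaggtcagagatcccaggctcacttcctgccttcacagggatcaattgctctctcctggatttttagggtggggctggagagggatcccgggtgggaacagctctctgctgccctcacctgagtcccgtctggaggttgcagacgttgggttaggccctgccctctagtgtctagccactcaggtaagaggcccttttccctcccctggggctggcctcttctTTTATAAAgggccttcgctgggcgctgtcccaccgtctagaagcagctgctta
Krt18: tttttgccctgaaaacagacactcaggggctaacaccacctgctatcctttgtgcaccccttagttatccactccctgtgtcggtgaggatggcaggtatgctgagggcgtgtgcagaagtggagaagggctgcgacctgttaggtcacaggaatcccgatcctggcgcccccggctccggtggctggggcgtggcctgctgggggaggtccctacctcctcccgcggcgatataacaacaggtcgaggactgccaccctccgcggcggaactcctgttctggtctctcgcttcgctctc
The 2 overlapping TATAAA matches of Krt8 began at bases 248 and 250 of its window, and the Krt18 window held none. The window of Krt18 had 17 CpG dinucleotides and that of Krt8 had 6. Promoter windows were found for 36 keratins, of which 19 (52.8%) held TATAAA, against 13.6% of all 32851 promoter windows of the same length and 2 of 25 claudins. Among these keratins, 2 of the 5 at 1 FPKM or more held it, as did 16 of the 27 listed at 0. For Krt7 and Krt14, which are among those 5, the RefSeq start lay 1360 and 1518 bases from the GENCODE start, inside the gene. Their windows, which held no TATAAA, thus do not cover the GENCODE start. Krt16, Krt19 and Krt80 had no window. A match describes the letters of the window only.

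The basal keratins were represented by one partner alone. Krt14 (ENSMUSG00000045545, chromosome 11, 100203162 to 100207548), the type I keratin of basal cells, was at 74.61 FPKM in the PBS library and 71.09 FPKM in the oxalate library. Krt5 (ENSMUSG00000061527, chromosome 15, 101707070 to 101712898), the type II keratin that pairs with it in basal epithelium, was listed at 0 with PBS, where 3 reads would have been worth 0.024 FPKM, and at 0.03 FPKM with oxalate, an estimated 2 reads. Krt14 thus rested on an estimated 7196 and 4403 reads, and Krt5 on 0 and 2. Krt15, the third basal keratin, was at 0.07 and 0.06 FPKM. Trp63, which encodes the basal cell factor p63 and was singled out after its values were seen, was at 0.20 and 0.32 FPKM. Over all keratins, the type II genes summed to 1.64 times the FPKM of the type I genes with PBS and 1.63 times with oxalate.

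The stress keratins were low. Krt16 (ENSMUSG00000053797, chromosome 11, 100246091 to 100248902), the type I keratin of wounded epidermis, was at 3.19 FPKM in the PBS library and 2.54 FPKM in the oxalate library, so that Krt14 stood 23.4 times above it with PBS and 28.0 times with oxalate. Krt17 was at 0.20 and 0.19 FPKM, and Krt6a and Krt6b, type II partners of Krt16 and Krt17, were listed at 0 in both libraries. Together the 4 genes held 0.18% of the keratin sum with PBS and 0.14% with oxalate. The level of Krt16 is uncertain, because 37.6% of its 50-base windows also occur in other annotated transcripts, with the largest part (25.2%) in the pseudogene Gm11597. Krt14 and Krt16 have in common a run of 134 bases in exon 1 of both coding sequences, at chr11:100207017-100207150 for Krt14 and chr11:100248476-100248609 for Krt16, both on the minus strand. Fragments that lie wholly within this run cannot be told apart between the 2 genes.
Krt14 and Krt16: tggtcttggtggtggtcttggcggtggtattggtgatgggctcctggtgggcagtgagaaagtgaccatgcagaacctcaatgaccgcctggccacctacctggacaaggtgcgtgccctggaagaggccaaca
Over its whole length Krt14 shared 11.4% of its windows with Krt16 and 14.4% with any other gene. Whether reads of Krt14 or Gm11597 were counted for Krt16 was not tested.

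Outside these classes, Krt80 (ENSMUSG00000037185, chromosome 15, 101347444 to 101370162), a type II keratin found in many epithelia, was at 70.4 FPKM in the PBS library and 73.45 FPKM in the oxalate library, close to the level of Krt14. Krt10, the type I keratin of suprabasal epidermis, was at 1.05 and 0.68 FPKM, and Krt13, of stratified mucosa, at 0.15 and 0.03 FPKM. The other 10 of the 12 suprabasal and stratified keratins, among them Krt1 and Krt4, were listed at 0 in both libraries. Of 23 hair and hair follicle keratins, 21 were listed at 0, while Krt87 was at 0.29 and 0.47 FPKM and Krt36 at 0.07 and 0.16 FPKM. Krt87 shared 36.9% of its windows with other annotated transcripts. Krt88, of the remaining keratins, was at 0.21 FPKM with PBS, an estimated 11 reads, and listed at 0 with oxalate, where 3 reads would have been worth 0.091 FPKM. The 95% counting interval of its log2 ratio of oxalate to PBS ended at -0.69, and that of Krt13 at -0.046. Krt42 and Krt222 were listed at 0 with PBS and stood at 0.07 and 0.04 FPKM with oxalate, an estimated 4 reads each. Their intervals both began at 0.040, on the other side of 0.

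The positions of the genes were not used to choose them. On chromosome 15, where 26 keratin genes lie within 0.685 Mb, the 4 genes at 1 FPKM or more were Krt80 and Krt7 at one end and Krt8 and Krt18 at the other. The 22 genes between them did not exceed 0.47 FPKM, and 19 were listed at 0 in both libraries. On chromosome 11, with 27 keratin genes, Krt19, Krt14 and Krt16 stood at places 22, 24 and 25 in order of position, with Krt9, listed at 0, at place 23, and Krt10 stood apart at place 7. This is a description of 1 cell line.

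**Figure D2:**
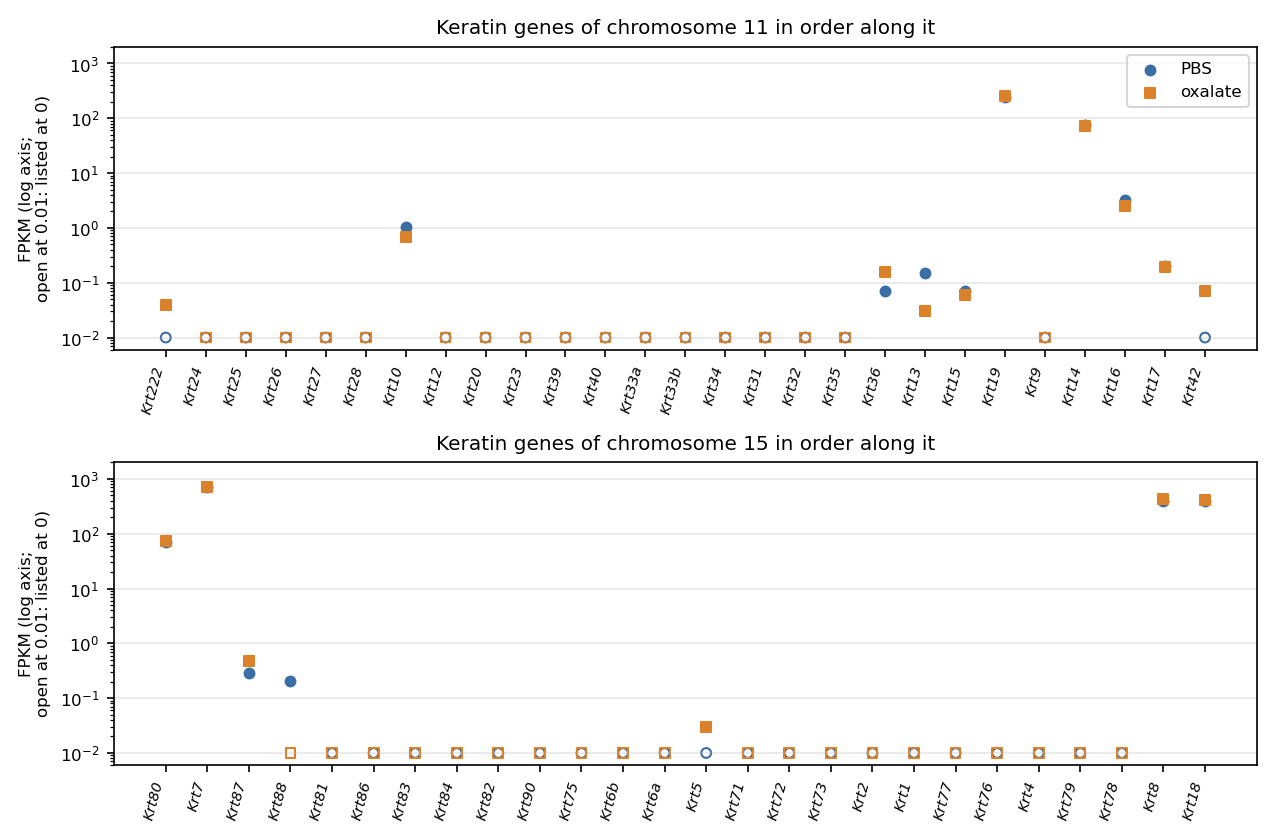
FPKM (log axis) of the keratin genes in their order along chromosome 11 (top) and chromosome 15 (bottom), PBS as blue circles and oxalate as orange squares, open symbols for values listed at 0. On chromosome 15 the 4 expressed genes stand at the 2 ends of the row, with 22 genes at 0.47 FPKM or less between them.

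Cldn3, Cldn4 and Cldn7 together summed to 463.86 FPKM with PBS and 465.95 FPKM with oxalate, which was 86.4% and 86.7% of the claudin sum. Cldn3 (ENSMUSG00000070473, chromosome 5, 134986214 to 134987472), a sealing claudin, was at 191.27 FPKM in the PBS library and 193.5 FPKM in the oxalate library. Cldn4 (ENSMUSG00000047501, chromosome 5, 134945119 to 134946934), whose effect on the junction depends on the tissue, was at 175.78 FPKM in the PBS library and 189.74 FPKM in the oxalate library. Cldn7 (ENSMUSG00000018569, chromosome 11, 69964779 to 69967885), which also lies along the lateral membrane, was at 96.81 FPKM in the PBS library and 82.71 FPKM in the oxalate library. In order of FPKM over all listed genes Cldn3 ranked 420 with PBS and 409 with oxalate, and no claudin-low cells were measured here for comparison. Cldn4 stood 1.82 times above Cldn7 with PBS and 2.29 times with oxalate.

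Cldn3 and Cldn4, the 2 highest claudins, are neighbours 39.3 kb apart that read away from each other, and Cldn13, on the same chromosome, was listed at 0. Their RefSeq promoter windows, chr5:134985964-134986263 on the plus strand and chr5:134946885-134947184 on the minus strand, are shown with matches to GGGCGG, the GC box bound by Sp1-type factors, on either strand in capitals.
Cldn3: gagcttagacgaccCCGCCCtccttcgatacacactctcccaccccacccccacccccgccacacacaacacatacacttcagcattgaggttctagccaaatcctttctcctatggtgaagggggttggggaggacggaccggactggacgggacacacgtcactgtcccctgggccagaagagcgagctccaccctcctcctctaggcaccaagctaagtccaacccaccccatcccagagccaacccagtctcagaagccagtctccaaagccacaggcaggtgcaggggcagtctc
Cldn4: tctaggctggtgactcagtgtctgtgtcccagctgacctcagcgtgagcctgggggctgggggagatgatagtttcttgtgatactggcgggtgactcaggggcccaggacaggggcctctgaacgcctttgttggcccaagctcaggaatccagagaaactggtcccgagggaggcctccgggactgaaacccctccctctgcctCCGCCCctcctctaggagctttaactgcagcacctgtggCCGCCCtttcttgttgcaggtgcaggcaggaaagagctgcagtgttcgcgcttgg
The Cldn3 window held 1 match, at base 15, and the Cldn4 window held 2, at bases 207 and 246. Of 25 claudins with a promoter window, 9 (36%) held GGGCGG, close to the 35.7% of all promoter windows, against 2 of 36 keratins (5.56%). The RefSeq start lay far from the GENCODE start for Cldn15 (1253 bases), Cldn34c3 (17722 bases) and Cldn34b2 (19437 bases), and of these only the Cldn15 window held GGGCGG. AACCGGTT, the site of grainyhead factors such as Grhl2, was found in no window of either family and in 0.146% of all windows.

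The other claudins above 1 FPKM were Cldn6, Cldn9, Cldn12 and Cldn23. Cldn6 (ENSMUSG00000023906, chromosome 17, 23679249 to 23682446), known from embryonic epithelium, was at 36.46 FPKM in the PBS library and 37.37 FPKM in the oxalate library. Cldn9 (ENSMUSG00000066720, chromosome 17, 23682584 to 23684026), whose 3′ end lies 137 bases from that of Cldn6 on the opposite strand, was at 15.32 and 14.63 FPKM. These genes shared no 50-base window with any other gene. Cldn12 (ENSMUSG00000046798, chromosome 5, 5489537 to 5514958) was at 16.85 FPKM in the PBS library and 14.57 FPKM in the oxalate library, and Cldn23 (ENSMUSG00000055976, chromosome 8, 35824712 to 35826559) at 3.79 and 4.01 FPKM. In PBS the levels of Cldn12 and Cldn9 were close, and with oxalate they were nearly equal.

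Claudins of other barriers were not detectable at this depth. Of the 7 sealing claudins only Cldn3 was above 0, and Cldn1 of epidermis, Cldn5 of endothelium, Cldn11, Cldn14, Cldn18 and Cldn19 were listed at 0 in both libraries. Of 5 channel-forming claudins, Cldn15 was at 0.21 and 0.10 FPKM and Cldn2 was listed at 0 with PBS and at 0.12 FPKM with oxalate, an estimated 6 reads. Cldn10, Cldn16 and Cldn17 were listed at 0, as was Cldn8, which is classed with Cldn4 and Cldn7. Cldn20 was at 0.32 and 0.50 FPKM, an estimated 12 reads in each library, and its gene overlaps Tfb1m. Cldn20 shared 0 of its 611 windows with annotated transcripts of any other gene, Tfb1m included. Whether counting used strand is not given, and whether unspliced Tfb1m RNA was counted for Cldn20 was not tested. Of the members at 1 FPKM or more, Krt7, Krt8, Krt80, Krt10 and Cldn3 overlap annotated genes that have no listed value. Whether reads of those genes were counted for the members was not tested. Cldn24 was at 0.19 and 0.37 FPKM, and shared 68.9% of its windows with Cldn22, which was listed at 0. For genes listed at 0, the limit of 3 reads was at most 0.083 FPKM with PBS and 0.13 FPKM with oxalate.

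Oxalate was set against PBS as log2((oxalate + 1)/(PBS + 1)), a scale on which low genes appear to differ less than they do. Genes were compared where the mean of both libraries reached 1 FPKM, and those past 2-fold were counted. Of all 10267 genes compared, 0.653% were past 2-fold in either direction. Of the 86 keratins and claudins, 14 passed the filter on the mean, 7 of each family, and 0 of them were past 2-fold or past 1.5-fold, where the share of all compared genes was 1.99%. Counts of 0 among 14 genes are near these shares and do not set the members apart. The counts of keratins and of claudins were also 0 with a pseudocount of 0.1 (0.945% of all genes), with 0.001 (0.974%) and with every listed gene (0.315%). They were 0 by construction with a mean of at least 5 FPKM (0.592%) and at 4-fold (0.0584%), which can only lower a count. With a pseudocount of 1, a gene under 1 FPKM in both libraries cannot reach 2-fold. Of the members that the setting with every listed gene added, only Krt10 reached 1 FPKM in either library, so that count was no real check. With a pseudocount of 0.001 and every listed gene together, where 8.94% of all genes were past 2-fold (3.64% raised and 5.3% lowered), the 53 keratins gave 6 and the 33 claudins 2. These were Krt36, Krt222, Krt42, Krt5 and Cldn2 above PBS and Krt88, Krt13 and Cldn15 below it, each with at most 22 estimated reads in a library. On the scale with a pseudocount of 1, all 14 compared members lay within 1.2-fold, as did 90.1% of all compared genes. The median log2 ratio was 0.037 for the keratins and 0.017 for the claudins, beside 0.0031 for all compared genes.

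**Figure D3:**
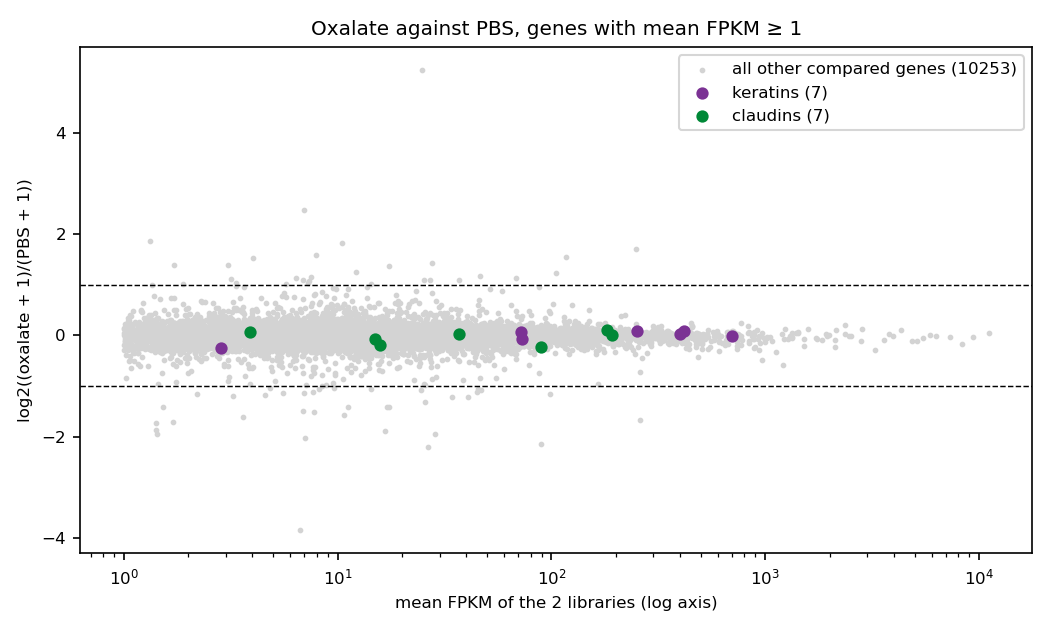
Log2((oxalate + 1)/(PBS + 1)) against the mean FPKM of the 2 libraries (log axis) for the 10267 compared genes in grey, with the 7 keratins in purple and the 7 claudins in green, and dashed lines at 2-fold. The 14 members lie between -0.24 and 0.11, in the dense band of all genes.

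Small differences between the libraries were set against counting error. For each gene, reads were estimated as FPKM times the mean length of its coding transcripts over the value of 1 read, and the 95% interval of the ratio was computed from them by the exact method of Clopper and Pearson. Ratios set beside an interval are log2(oxalate/PBS) with no pseudocount. The interval covers counting error only and compares 2 libraries, not 2 conditions. It left out 0 for 9 of the 14 members compared (64.3%), beside 48.8% of all compared genes with reads, so at this depth counting error alone is narrower than many differences between the libraries.

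Among the keratins, Krt8 had a log2 ratio of 0.095 (interval 0.074 to 0.12) and Krt19 one of 0.094 (0.064 to 0.12). Krt18 stood at 0.037 (0.012 to 0.062) and Krt80 at 0.061 (0.022 to 0.10). Krt7 stood at -0.0088 (-0.024 to 0.0060), an interval that holds 0. Its 2 coding transcripts have 642 and 4094 bases, and with the length of all its exons together the interval was -0.017 to -0.00024. The simple keratins thus lay within 0.1 of no difference, with Krt8, Krt18 and Krt19 higher in the oxalate library and Krt7 close to 0. Krt14 was slightly lower with oxalate at -0.070 (-0.12 to -0.015). Krt16 had the lowest ratio of the 14 members at -0.33, with a wide interval of -0.63 to -0.037 from an estimated 284 and 145 reads. Krt10, below the filter on the mean, had -0.63, with an interval of -1.25 to -0.017 from an estimated 79 and 33 reads.

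Among the claudins, Cldn4 had the highest ratio of the 14 members, 0.11 (interval 0.077 to 0.14), and Cldn7 the lowest of the claudins, -0.23 (-0.30 to -0.16). Their intervals do not overlap, but these claudins were picked as the extremes and the intervals cover counting error only. Cldn12 was also lower with oxalate at -0.21 (-0.30 to -0.12). The ratios of Cldn3 at 0.017, Cldn6 at 0.036, Cldn9 at -0.066 and Cldn23 at 0.081 had intervals that held 0. Cldn7 and Cldn12 each have 5 coding transcripts, which run from 373 to 1335 bases for Cldn7 and from 359 to 3752 bases for Cldn12, whereas Cldn3, Cldn4 and Cldn9 have 1. The part of transcript assignment in these ratios was not tested. With the pseudocount of 1, the median size of the log2 ratio was 0.063 for the 6 compared members with several coding transcripts and 0.081 for the 8 with 1, beside 0.090 and 0.076 for all compared genes of each kind. Of those 6, Cldn7 at -0.22 and Cldn12 at -0.20 lay furthest from 0, and of those 8, Krt16 at -0.24. Over all genes, 29 were past 2-fold upwards and 34 downwards of 7621 with several coding transcripts, and 1 and 3 of 2613 with 1.

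**Figure D4:**
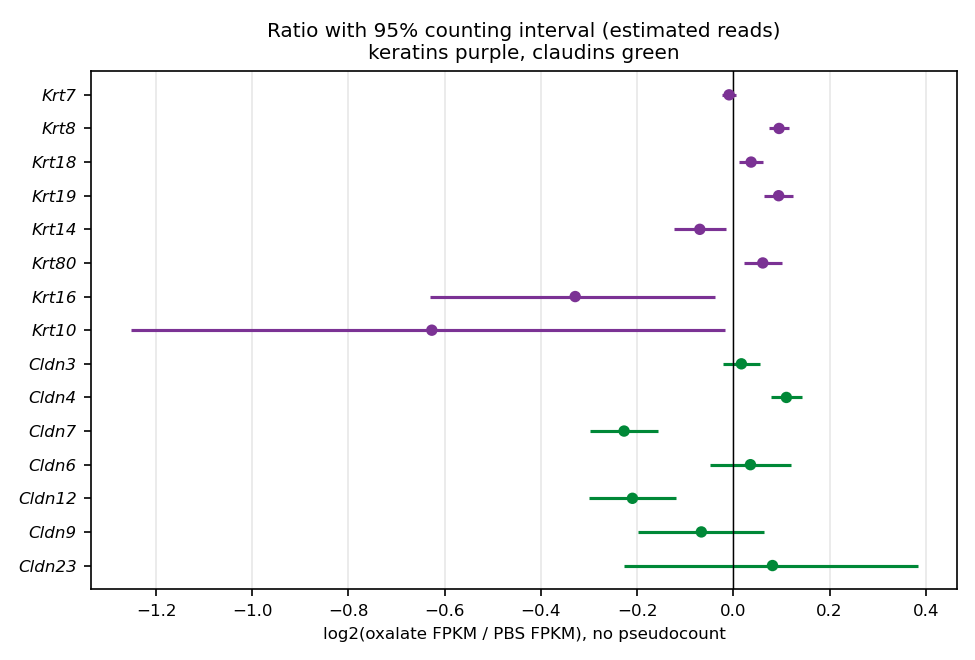
Log2 ratio of oxalate to PBS without a pseudocount for the 15 keratins (purple) and claudins (green) at 1 FPKM or more in either library, with bars for the 95% counting interval from estimated reads. Cldn7 and Cldn12 lie left of 0 and Cldn4, Krt8 and Krt19 right of it, all within 0.3 of it, and the bars of Krt10 and Krt16 are the widest on the left.

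The structures that hold keratins and claudins were also read, from lists of partner genes. Of all 10267 compared genes, 5198 were above and 5033 below their PBS level, with a median log2 ratio of 0.0031, and directions in the lists are given beside this background without a test. Of 21 compared tight junction partners, 0 were past 2-fold upwards (0.292% of all compared genes) and 1 downwards (0.36%). This was Tjap1 (ENSMUSG00000012296, chromosome 17, 46257851 to 46283026), which encodes a protein associated with tight junctions and was at 147.06 FPKM in the PBS library and 32.5 FPKM in the oxalate library, a log2 ratio of -2.14. It has 11 coding transcripts, and the part of transcript assignment in this ratio was not tested. The highest gene of this list, Ybx3, which encodes an RNA- and DNA-binding protein of the junction, was at 467.07 and 416.62 FPKM, and 14 genes of the list were above and 7 below PBS, with a median log2 ratio of 0.050.

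Of 17 compared genes of desmosomes and hemidesmosomes, which anchor keratin filaments at the membrane, 15 stood above and 2 below their PBS level, 0 past 2-fold, and the median log2 ratio was 0.084. Perp, a membrane protein of desmosomes, led this list at 114.19 and 124.7 FPKM. Of 5 compared intermediate filament genes other than keratins, 2 were above and 3 below PBS (median log2 ratio -0.024). Lmna, which encodes the nuclear lamins A and C, was highest at 483.95 and 476.06 FPKM. Vim, which encodes vimentin of mesenchymal cells and was singled out after its values were seen, was at 74.58 and 75.3 FPKM, close to the level of Krt14, and both kinds of filament gene were read from the same libraries.

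Cdh1 and the transcription and splicing factors of epithelial cells gave 9 above and 2 below PBS of 11 compared genes (median log2 ratio 0.089), and Cdh1, the gene of E-cadherin, was highest at 187.7 and 199.34 FPKM. Of 5 compared repressors of epithelial genes, 2 were above and 3 below PBS (median log2 ratio -0.021), and Snai1 was highest at 19.99 and 19.69 FPKM. In each of these lists 0 genes were past 2-fold.

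**Figure D5:**
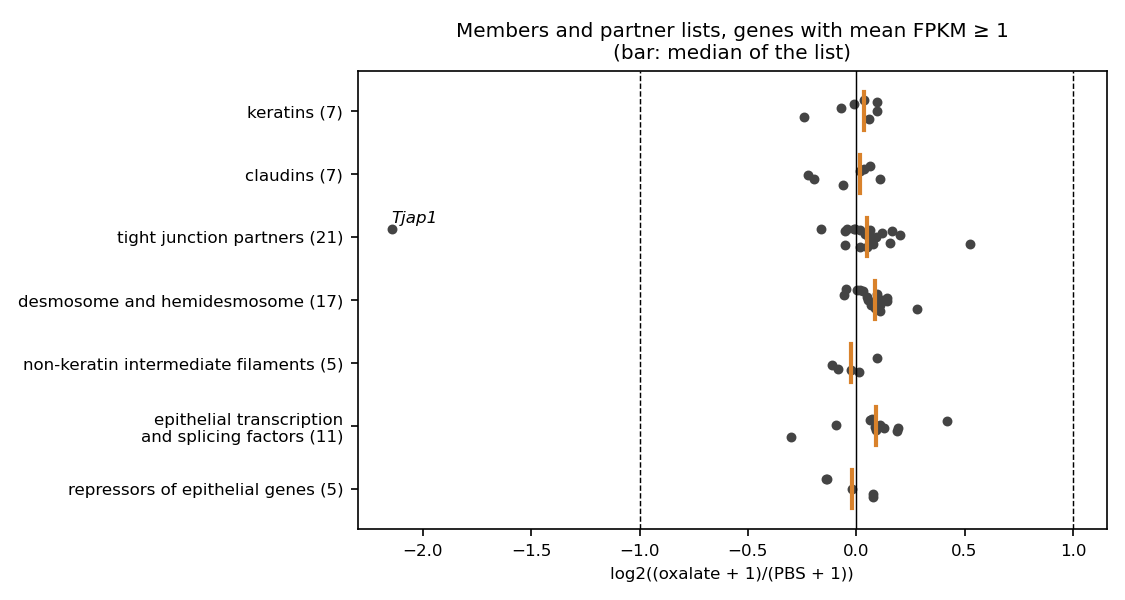
Log2((oxalate + 1)/(PBS + 1)) of the compared keratins, claudins and partner genes, 1 point per gene with an orange bar at the median of each list and dashed lines at 2-fold. Tjap1 at -2.14 is the only point past 2-fold, and the list medians lie between -0.024 and 0.089.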

How the data were processed

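RNA of 4T1 cells was measured in 2 libraries, PBS and potassium oxalate, grouped by the treatment label. Polyadenylated RNA was enriched and copied with random primers. The authors deposited FPKM values rounded to 2 decimals. The submitters' processing notes name Bowtie2 2.2.8 and TopHat2 2.1.1. The quantification tool, genome build and filters are not given in the sources used here. Symbols, coordinates and lengths came from GENCODE M21 (GRCm38), in which 21848 of 21911 identifiers were found.

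The members, gene classes, lists and alternatives were chosen with earlier results of these data known. The tight junction list had 1 name that matched no gene. Named were all members at 1 FPKM or more in either library, those from 0.1 to 1, and of each partner list the genes past 2-fold and the highest. For the depth, 88 PBS and 70 oxalate genes with 1 transcript of 200 to 700 bases were used, all within 0.2 of whole reads. Alternatives covered the pseudocount, scaling, filter, fold, length and reads in place of FPKM. Counting intervals and the limit of 3 reads cover counting error only. Shared windows were 50-base words found in transcripts of another gene on either strand. Scripts were tested on simulated data. Computations ran in Python (3.11.15) with pandas (2.3.3) and numpy (2.4.6). Intervals came from scipy (1.17.1) and plots from matplotlib (3.10.9).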

Additional observations from a re-analysis of the deposited data

How the results depend on the processing

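No paired analysis was possible because only 1 library exists for PBS and 1 for oxalate, and for the same reason neither could be left out. Under pseudocounts of 0.1 and 0.001, a rescaling to a median of 0, every listed gene, a mean of at least 5 FPKM, 1.5-fold and 4-fold, the counts of keratins and of claudins past the fold stayed at 0 and that of tight junction partners at 1. The higher mean and 4-fold could only lower a count, so under them a count of 0 was fixed in advance. The rescaling shifted each log2 ratio by about 0.0031, too little to bring any member to 2-fold. Apart from Krt10, the keratins, claudins and tight junction partners added with every listed gene were under 1 FPKM in both libraries. With a pseudocount of 1 such genes cannot reach 2-fold, so these 2 settings were no real check. Joining the pseudocount of 0.001 with every listed gene, which was added once the data had been seen, gave 6 keratins and 2 claudins. The cause was not tested. The median log2 ratio of the claudins was -0.023 with a mean of at least 5 FPKM, against 0.017, and that of the keratins 0.049. None of 45 values of the 15 named members changed sign or moved beyond its counting error. With exon-union lengths the interval of Krt7 left out 0 (-0.017 to -0.00024), and the other 14 kept their side of 0.

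With estimated reads in place of FPKM, which weighs long transcripts more by construction, simple keratins held 90.3% with PBS and 90.5% with oxalate, and basal keratins 3.37% and 3.14%. Sealing claudins then held 31.4% in each library, and Cldn4, Cldn7 and Cldn8 52.1% and 53.1%. Depth limits the genes under 1 FPKM, which rest on at most 39 estimated reads in a library apart from Krt10.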
